A study of Mus musculus with 20 samples.

Results

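The 39 genes described here are the mouse Hox genes of the Hoxa, Hoxb, Hoxc and Hoxd clusters, taken as every protein-coding gene of the GENCODE vM1 annotation (build NCBIM37) whose symbol is Hoxa, Hoxb, Hoxc or Hoxd followed by a number. They are 39 of 22202 protein-coding genes on chromosomes 1 to 19 and X, with 11 in Hoxa, 10 in Hoxb, 9 in Hoxc and 9 in Hoxd, and they were chosen by name and not by any measured value. Of 20 libraries in the series, the 10 with a peak list were used. H3K27me3, H3K4me3, H3K27ac and H3K4me1 were profiled by chromatin immunoprecipitation and sequencing in the medial ganglionic eminence (MGE), a ventral forebrain territory, of C57BL/6 embryos at embryonic day 13.5 with a conditional knockout of Nkx2-1 (Nkx2-1cKO, called the mutant) and of wild-type C57BL/6 embryos of the same age. NKX2-1 and LHX6, homeodomain factors of the MGE, were precipitated from basal ganglia of wild-type CD-1 embryos, also at embryonic day 13.5. The Cre line of the knockout and the number of embryos behind a library are not given in the sources used here. With 1 library per antibody and genotype, values carry no replicate error, no test between genotypes was possible, and each difference describes a pair of libraries. In dissected tissue, a mark in fewer cells and a weaker mark per cell cannot be told apart.

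Hox genes encode homeodomain transcription factors that give cells their position along the head-to-tail axis. Their order along the chromosome follows the order of their expression domains, with low-numbered genes active up to the hindbrain and high-numbered genes active in the caudal trunk, limb buds and genital tubercle, and the forebrain lies in front of all of these domains. Where Hox genes are silent, Polycomb complexes cover the clusters with H3K27me3, and trithorax complexes deposit H3K4me3, the mark of transcription start sites (TSSs). Promoters with both marks are called bivalent, H3K27ac marks active promoters and enhancers, and H3K4me1 marks enhancers and the flanks of promoters.

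H3K27me3 covered nearly the whole span of Hoxa, Hoxc and Hoxd and 82.4% (mutant) and 80.0% (wild type) of that of Hoxb, no H3K27ac region lay at a Hox promoter, and H3K4me3 and H3K4me1 sat in short islands inside the H3K27me3. Sequence around the summits of such H3K4me3 islands is printed first, as 201 bases of the NCBIM37 reference on the gene's strand, 5′ to 3′, with CpG dinucleotides in capitals, because they show the CpG content of the places where H3K4me3 stood within H3K27me3. Windows that overlap an annotated untranslated region are not shown, which left 22 of 42 mutant and 12 of 26 wild-type summits to choose from. The first 4 are the posterior outermost genes Hoxa13, Hoxb13, Hoxc13 and Hoxd13. The other 3 are Hoxa4, whose TSS lies in a break of the H3K27me3, and Hoxb5 and Hoxd8, whose regions were in the mutant list alone.
Hoxa13, wild-type summit, chr6:52210029-52210229, minus strand: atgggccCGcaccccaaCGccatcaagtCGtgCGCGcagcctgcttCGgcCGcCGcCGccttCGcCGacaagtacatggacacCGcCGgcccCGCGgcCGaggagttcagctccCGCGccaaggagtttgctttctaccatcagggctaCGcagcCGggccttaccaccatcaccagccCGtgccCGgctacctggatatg
Hoxb13, mutant summit, chr11:96055390-96055590, plus strand: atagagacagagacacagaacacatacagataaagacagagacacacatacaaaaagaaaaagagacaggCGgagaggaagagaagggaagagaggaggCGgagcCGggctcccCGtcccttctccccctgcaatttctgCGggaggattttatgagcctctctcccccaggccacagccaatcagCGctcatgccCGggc
Hoxc13, mutant summit, chr15:102751074-102751274, plus strand: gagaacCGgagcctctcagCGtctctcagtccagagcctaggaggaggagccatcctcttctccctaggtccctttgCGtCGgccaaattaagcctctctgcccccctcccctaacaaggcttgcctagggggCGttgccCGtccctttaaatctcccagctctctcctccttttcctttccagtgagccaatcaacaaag
Hoxd13, mutant summit, chr2:74506535-74506735, plus strand: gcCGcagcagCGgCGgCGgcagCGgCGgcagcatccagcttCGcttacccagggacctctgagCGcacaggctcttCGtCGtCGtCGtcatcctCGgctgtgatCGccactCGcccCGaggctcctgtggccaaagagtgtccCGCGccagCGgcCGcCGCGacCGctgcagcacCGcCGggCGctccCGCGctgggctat
Hoxa4, mutant summit, chr6:52142022-52142222, minus strand: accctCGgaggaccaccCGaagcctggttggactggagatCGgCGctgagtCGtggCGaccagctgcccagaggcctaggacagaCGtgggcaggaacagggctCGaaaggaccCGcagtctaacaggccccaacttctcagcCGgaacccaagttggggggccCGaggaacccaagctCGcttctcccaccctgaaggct
Hoxb5, mutant summit, chr11:96165056-96165256, plus strand: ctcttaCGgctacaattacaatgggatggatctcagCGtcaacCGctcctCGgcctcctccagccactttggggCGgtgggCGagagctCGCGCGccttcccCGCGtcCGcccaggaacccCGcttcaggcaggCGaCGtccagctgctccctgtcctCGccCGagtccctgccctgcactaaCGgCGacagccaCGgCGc
Hoxd8, mutant summit, chr2:74543701-74543901, plus strand: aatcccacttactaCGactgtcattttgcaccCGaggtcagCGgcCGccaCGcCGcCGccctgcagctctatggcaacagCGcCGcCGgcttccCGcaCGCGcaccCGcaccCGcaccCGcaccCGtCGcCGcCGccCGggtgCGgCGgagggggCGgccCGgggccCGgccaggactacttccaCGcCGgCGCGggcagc

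The summit lay 667 bases after the nearest TSS in a coding exon at Hoxa13, 140 before it at Hoxb13, 360 before it at Hoxc13, 268 after it in a coding exon at Hoxd13 and 370 before the nearest TSS at Hoxa4. At Hoxb5 it lay 1247 bases and at Hoxd8 592 bases after the nearest TSS, both in coding exons. Over all summits in the cluster windows, the 201 bases held 4 to 30 CpG dinucleotides in the mutant list, with a median of 15, and 6 to 30 in the wild-type list, also with a median of 15. Hoxd8 and Hoxc13 are near the ends of that range among the windows printed, with 30 and 6 CpG.

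Some facts of the whole series bear on what follows. The histone libraries held 26.8 to 69.0 M tags after duplicate removal, per the file headers, and H3K4me3 had the fewest tags (26.8 M in the mutant, 28.8 M in wild type) and the most duplicates (34.0% in the mutant, 28.3% in wild type). The mutant lists covered more bases than the wild-type lists for all 4 marks, by 1.32 times for H3K27me3, 1.22 for H3K4me3, 1.12 for H3K27ac and 1.10 for H3K4me1. All 8 MGE markers had H3K27ac at the promoter in both genotypes, Nkx2-1 among them with 5001 promoter bases in the mutant and 4576 in wild type. It was shorter past 500 bases at 2 of the 8 and longer at 0, beside 1.65% of all genes shorter and 5.77% longer. Lhx6 had 781 bases in the mutant and 5486 in wild type, and Lhx8, a further LIM homeodomain gene, had 1110 in the mutant and 6121 in wild type. H3K27ac was at the promoters of 1 and 0 of 5 endothelial markers, 0 and 0 of 4 microglial, 1 and 1 of 4 blood, 1 and 1 of 5 mural and meningeal and 2 and 2 of 5 hindbrain and spinal cord markers in the mutant and wild type. Over all genes, 59.4% had H3K27ac at the promoter in the mutant and 57.5% in wild type. Of the hindbrain genes, Egr2 had 266 promoter bases of H3K27ac in the mutant and 0 in wild type, and Gbx2 had 0 in the mutant and 252 in wild type.

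At the promoters, taken as 2.5 kb either side of every TSS of a gene, all 39 Hox genes overlapped H3K27me3 in both genotypes, against a background of 23.5% of all genes in the mutant and 20.5% in wild type. None had it in 1 genotype alone (background 3.5% in the mutant alone and 0.522% in wild type alone). The exact 95% Clopper-Pearson interval on 39 of 39 reached down to 91.0%. This interval and the later ones cover counting error only and give no error range for a difference between genotypes. Hox windows overlap, so neighbouring genes can share a region and are not independent. The cover was complete in 30 genes in the mutant and 29 in wild type, and 37 genes in the mutant and 36 in wild type had at least 90% of their promoter bases covered, against 2.57% and 2.04% of all genes. Hoxa13, the limb and genital tubercle gene at the outer end of its cluster, had the lowest share, 84.2% in the mutant and 83.6% in wild type. Hoxa4, a hindbrain and cervical gene, had 86.4% in the mutant and 83.9% in wild type. Hoxd8 had 92.9% in the mutant and 88.2% in wild type. No Hox promoter moved past the limit of 500 bases between genotypes, against 8.34% of all genes with more and 0.401% with less H3K27me3 in the mutant. With 36 of 39 at least 90% covered in wild type, there was little room for a rise of that size, and among the 400 other promoters at least 90% covered in both genotypes and over 100 kb from the clusters, 0.5% had more and 0.25% less. The greatest rises were 256 bases at Hoxd8, 209 at Hoxd11 and 172 at Hoxd13, and the single fall was 22 bases at Hoxb4.

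Over whole clusters with 20 kb either side, the H3K27me3 cover differed by a few percent between genotypes. It came to 132.9 kb in the mutant and 131.4 kb in wild type at Hoxa, 175.8 and 170.5 kb at Hoxb, 153.5 and 152.4 kb at Hoxc, and 119.5 and 116.1 kb at Hoxd. The sum over the 4 windows was 582 kb in the mutant and 570 kb in wild type, a ratio of 1.02. The windows were already 87.5% covered in wild type, so that ratio could not come near the 1.32 over chromosomes 1 to 19 and X. Hoxc was the most evenly covered cluster, with 99.7% of the span of its genes under H3K27me3 in both genotypes. The single break wholly inside its span lay between Hoxc11 and Hoxc10, with 70 bases in the mutant and 152 bases in wild type. A further unmarked stretch at the Hoxc13 TSS crossed the start of the span. The Hoxc13 promoter was 94.8% covered in the mutant and 94.6% in wild type. Hoxb was the least covered, with 82.4% of its span in the mutant and 80.0% in wild type. The longest unjoined H3K27me3 region of the mutant list, 86.6 kb long, lay in Hoxc (chr15:102789757-102876392), as did the longest of the wild-type list, also 86.6 kb (chr15:102789796-102876367). Fold enrichment, the authors' value for a summit, was taken at the strongest summit of each region. In it, the longest region of each cluster stood above 99.5% to 99.8% of the mutant list and 99.2% to 99.6% of the wild-type list. A long region can hold more summits than a short one, so this rank is not independent of length.

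**Figure D1:**
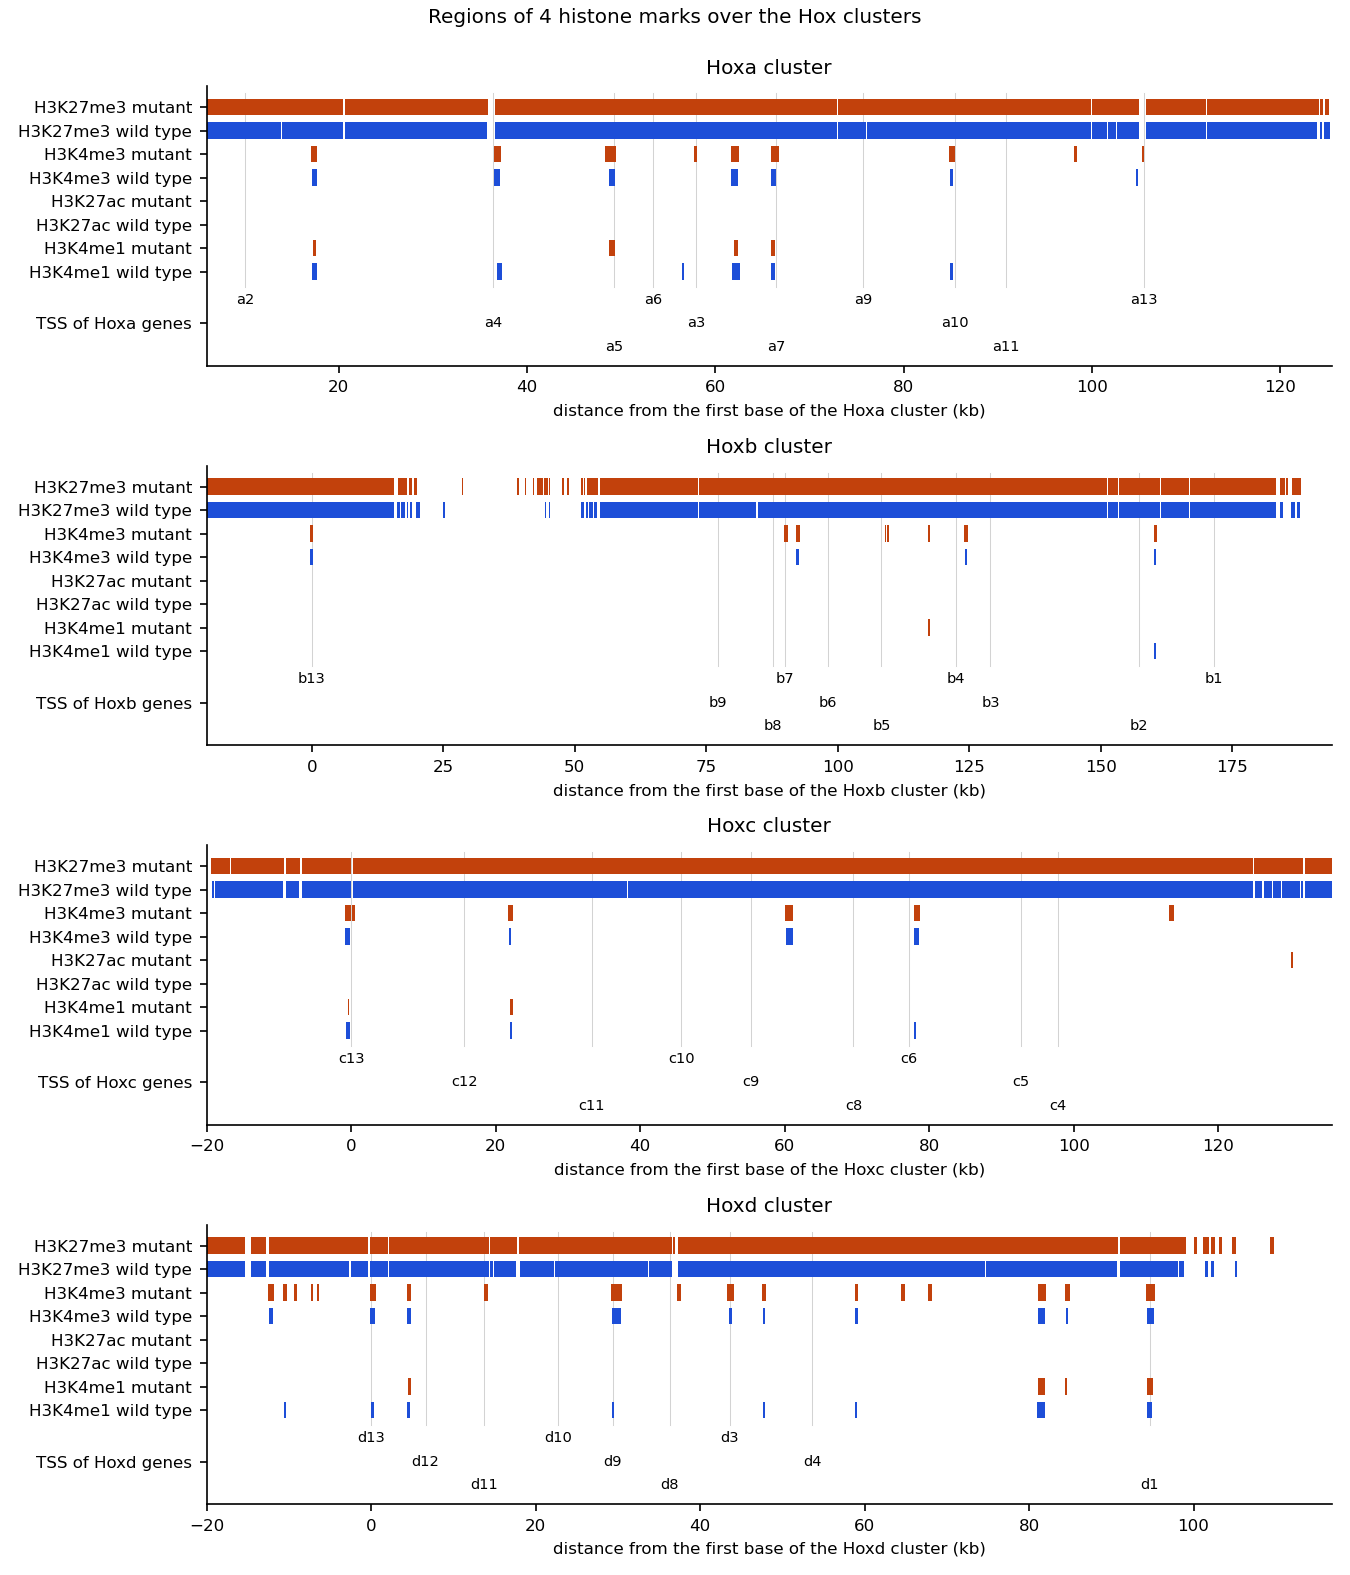
Regions of H3K27me3, H3K4me3, H3K27ac and H3K4me1 (rows, mutant in orange above wild type in blue) over each Hox cluster with 20 kb either side (the start of Hoxa is not drawn), with distance from the cluster's first base in kb on the x axis and grey lines at the first TSS of each gene. H3K27me3 fills each cluster apart from the stretch between Hoxb13 and Hoxb9, H3K4me3 forms short regions, more of them in the mutant, and the single H3K27ac region lies past Hoxc4 in the mutant.

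The breaks inside the H3K27me3 fell at named places. Only breaks wholly inside the span of a cluster were counted, which leaves out unmarked stretches at the Hoxa13 and Hoxc13 TSSs, at span ends. Of the counted breaks in Hoxa, the longest lay over the Hoxa4 promoter. It measured 685 bases in the mutant (chr6:52141249-52141933) and 814 bases in wild type (chr6:52141151-52141964). The Hoxa13 promoter had 4279 of 5079 bases covered in the mutant and 4247 in wild type, and the Hoxa4 promoter 4366 and 4237 of 5051. In Hoxd the longest break in wild type lay in Hoxd8 and measured 651 bases (chr2:74542979-74543629), where the mutant had breaks of 100 and 295 bases. These stretches were rich in CpG: the Hoxa4 break was 77.4% G or C with 99 CpG in the mutant and 76.2% with 112 CpG in wild type, and the wild-type Hoxd8 break was 77.9% with 103 CpG. Other breaks were poor in both: the longest Hoxd break of the mutant (316 bases, 30.4% G or C, 3 CpG) overlapped a wild-type break of 478 bases (31.0%, 3 CpG). The break between Hoxc11 and Hoxc10 was 34.3% G or C in the mutant and 31.6% in wild type, with 0 CpG in each. The part of base composition in these breaks was not tested. In Hoxb the break was of another kind, the long stretch between Hoxb13 and Hoxb9. Its unmarked pieces of over 1 kb measured 8.42 kb (48.4% G or C), 10.3 kb (44.4%) and, in 4 more pieces, 1.03 to 2.37 kb in the mutant, and 4.34 kb (50.2%), 19.1 kb (45.0%) and 5.87 kb (44.2%) in wild type. In all, the counted breaks took 1.05 kb of the Hoxa span in the mutant and 1.72 kb in wild type, 30.5 and 34.7 kb of Hoxb, 0.07 and 0.152 kb of Hoxc, and 1.15 and 2.15 kb of Hoxd. The Hoxa and Hoxc values leave out the stretches at the Hoxa13 and Hoxc13 TSSs. With those stretches taken in, H3K27me3 covered 98.5% of the Hoxa span in the mutant and 97.8% in wild type.

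Joined across gaps of up to 5 kb, the H3K27me3 regions made 10318 domains in the mutant and 7872 in wild type, with median lengths of 2.32 and 2.28 kb, and the Hox clusters held the longest of them. The Hoxc domain was the longest in both lists, at 208.9 kb in each. The Hoxa domain ranked 2 in both, 186.1 kb in the mutant and 137.1 kb in wild type. Rank 3 was the domain with Hoxb9 to Hoxb1, 149.0 kb in the mutant and 136.6 kb in wild type. The Hoxd domain, 135.9 kb in the mutant and 131.3 kb in wild type, ranked 5 in the mutant list and 4 in wild type, and rank 4 in the mutant was a domain of 146.6 kb with Neurog2 and Alpk1. Hoxb13, which lies far from the rest of its cluster and acts in the caudal trunk and prostate, sat in a domain of its own, 57.2 kb in the mutant and 58.1 kb in wild type. Of all joined domains, 8 in the mutant and 6 in wild type reached 100 kb.

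**Figure D2:**
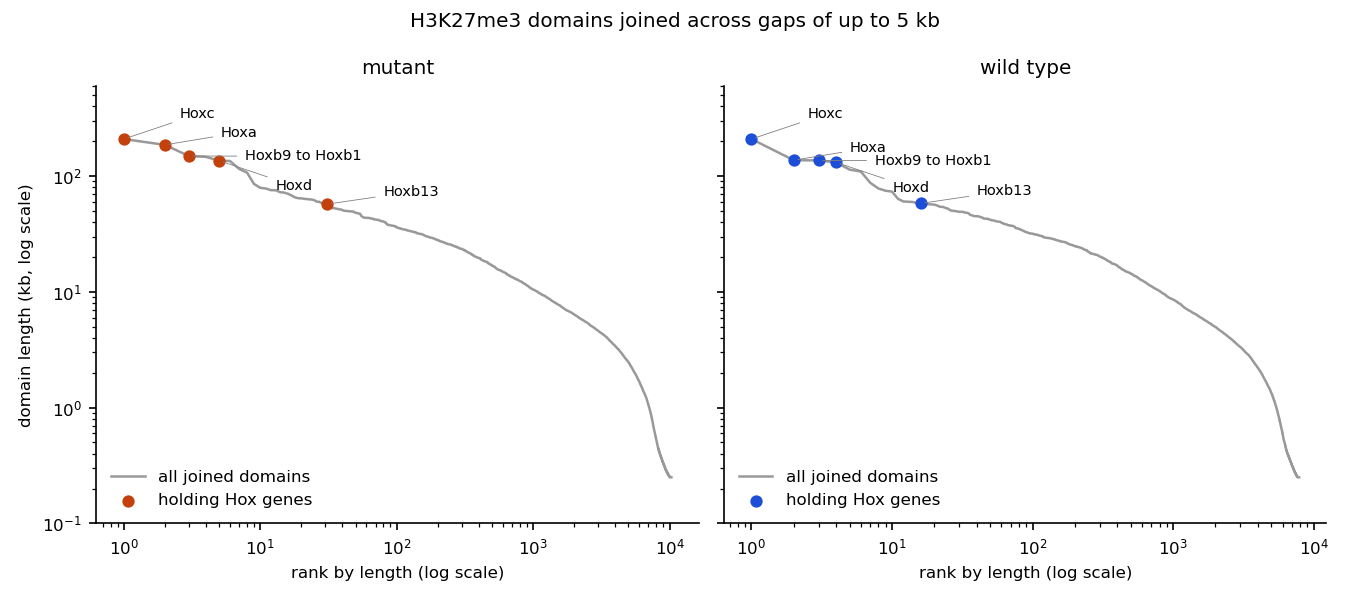
Length of each joined H3K27me3 domain (y axis, kb, log scale) against its rank by length (x axis, log scale), mutant on the left and wild type on the right. Coloured points are domains holding Hox genes: Hoxc, Hoxa and Hoxb9 to Hoxb1 hold ranks 1 to 3 in both panels, and the Hoxb13 domain ranks 31 in the mutant and 16 in wild type.

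With gaps of up to 5 kb joined, the edges of these domains were mostly close in both genotypes, and 7 of 8 differed by under 5 kb. The Hoxa domain began nearest to the pseudogene Gm15052 in both genotypes. It ended 68.4 kb past Hoxa13 in the mutant, 10.9 kb beyond Evx1, a homeobox gene beside the cluster, and 19.8 kb past Hoxa13 in wild type, where the nearest gene was Gm15053. That difference of 48.5 kb turned on the joining rule: in wild type an unmarked stretch of 5.68 kb, just over the 5 kb limit, was followed by a further domain of 42.2 kb. With gaps of up to 10 kb joined, the Hoxa domain measured 186.1 kb in the mutant and 185.0 kb in wild type, and with gaps of up to 2 kb 134.4 kb in the mutant and 137.1 kb in wild type. Hoxb and Hoxc turned on the rule too. With 10 kb, Hoxb measured 236.8 kb in the mutant and 220.7 kb in wild type from start to end, and Hoxc 233.7 and 262.7 kb. With 2 kb, Hoxb measured 221.8 and 220.7 kb and Hoxc 170.9 kb in each. With the mutant list reduced to equal covered length, Hoxc measured 175.9 kb in the mutant and 208.9 kb in wild type. The Hoxb domains began inside Ttll6, a tubulin-modifying enzyme gene, 37.2 kb before Hoxb13 in the mutant and 32.8 kb in wild type, and ended 14.1 and 13.9 kb past Hoxb1, where the nearest gene was Gm11531. The Hoxc domain began nearest to Gm17649, 25.3 kb (mutant) and 25.5 kb (wild type) before Hoxc13, and ended 67.9 and 67.7 kb past Hoxc4, 18.4 and 18.5 kb short of D930007P13Rik. The Hoxd domain took in Evx2, began 26.1 kb (mutant) and 26.0 kb (wild type) before Hoxd13 nearest to Gm13672, and ended 13.0 kb past Hoxd1 in the mutant and 8.42 kb in wild type.

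H3K4me3 was present at 23 of 39 Hox promoters in the mutant (59.0%, exact 95% interval 42.1% to 74.4%) and at 18 in wild type (46.2%, 30.1% to 62.8%), against a background of 66.1% and 64.9% of all genes. All 18 promoters marked in wild type were also marked in the mutant. The other 5, in the mutant list alone, were Hoxb5, Hoxb8, Hoxc4, Hoxd8 and Hoxd11, which is 12.8% of Hox genes beside a background of 1.24%, and none was in the wild-type list alone (background 0.104%). Because more Hox than other promoters lacked H3K4me3 in wild type, the gain can also be counted among promoters without it there: 5 of 21 Hox genes (23.8%) and 275 of 7782 of all genes (3.53%). Among 400 other genes that had at least 90% of their promoter bases under H3K27me3 in both genotypes and lay over 100 kb from the clusters, a set chosen after the values were seen, 14 of 21 (66.7%) gained it. On that count, the share at Hox promoters was below that of the other H3K27me3-covered promoters in the 2 libraries. Counted over all members the order was the opposite, with 12.8% of Hox genes and 3.5% of the 400 others in the mutant list alone.

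Since every Hox promoter had H3K27me3, these 23 in the mutant and 18 in wild type were the Hox promoters with both marks, beside 22.5% and 19.4% of all genes.

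The direction of the H3K4me3 difference depended on how the longer mutant list was treated. With the mutant list limited to its strongest regions until it covered as many bases as the wild-type list (−log10 p of at least 34.9), 14 of 42 mutant regions in the cluster windows were left, 8 Hox promoters had the mark in the mutant and 18 in wild type, and the cluster ratio was 0.784 in place of 1.74. The same limit left 340 of the 400 other covered promoters marked, and their summed ratio was 1.05, with 0.702 at the Hox promoters. With 1 limit in both lists the ratio stayed above 1, at 2.21 for −log10 p of at least 20, a limit chosen after seeing the data. Depth, duplicates and list length moved with genotype in the values given above, and their part in the result was not tested. Promoter H3K4me3 at markers of other cell types was at 2 in the mutant and 1 in wild type of 5 endothelial, 0 and 0 of 4 microglial, 2 and 2 of 4 blood, 5 and 5 of 5 mural and meningeal and 5 and 5 of 5 hindbrain and spinal cord genes. The background was 66.1% of all genes in the mutant and 64.9% in wild type. Summed over each list, H3K4me3 covered 3753 bases in the mutant and 2017 in wild type at the endothelial genes, 4924 and 2759 at the blood genes, 11974 and 11136 at the mural and meningeal genes, and 12250 and 12116 at the hindbrain and spinal cord genes. The endothelial genes with the mark were Cdh5 (740 bases in the mutant and 0 in wild type) and Kdr (3013 and 2017). In the blood list, Tal1 had 3365 and 1219 and Klf1 1559 and 1540. Pecam1, Tek, Tie1, Gata1 and Hbb-bh1 were at 0 in both genotypes. The promoter windows of Kdr (5031 bases) and Tal1 (8083 bases) were wholly under H3K27me3 in both genotypes. The part of these cell types in the result was not tested.

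Among the anterior genes, paralogue groups 1 to 4, which pattern the hindbrain, the cervical region and the pharyngeal arches, H3K4me3 was at most genes of groups 3 and 4 and at none of group 2. Hoxd1, at the opposite end of Hoxd from Hoxd13, had 1074 promoter bases under H3K4me3 in the mutant and 871 in wild type. Hoxb1, which specifies rhombomere 4 of the hindbrain, had none in either genotype, and neither did Hoxa2 or Hoxb2. Hoxa3, a thymus and parathyroid gene, had 978 bases in the mutant and 605 in wild type. Hoxd3, a gene of the upper cervical vertebrae, had 2088 in the mutant and 637 in wild type, the greatest rise of all Hox genes (1451 bases), over promoter windows of 26709 bases from 6 TSSs. Hoxb3 had none in either genotype. Group 4 held the mark in all 4 genes in the mutant and 3 in wild type. Hoxa4 had 685 bases in the mutant and 552 in wild type, Hoxb4 577 and 415, Hoxd4 397 and 318, and Hoxc4, the last gene of its cluster, 655 and 0. The Hoxd4 region also lies in the Hoxd3 promoter windows, so its bases are counted at both genes. The Hoxc4 region (chr15:102864762-102865416) had its summit in a coding exon, 391 bases after the nearer TSS.

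Among the central genes, groups 5 to 8, which pattern the neck and thorax, 7 had the mark in the mutant and 4 in wild type. Hoxa5, needed for lung and airway development, had 1190 bases in the mutant and 679 in wild type. Hoxb5 had 532 in the mutant and 0 in wild type, as 2 short regions of 282 and 250 bases. Hoxc6 had 798 and 637. Hoxa7 had 1738 in the mutant and 1360 in wild type, in a pair of regions at different TSSs. Hoxb7 had 1117 in the mutant and 355 in wild type, a rise of 762 bases. Hoxb8, a gene with roles in the spinal cord and in blood cells, had 728 and 0, and its region (chr11:96145442-96146169) is the same one that reached the promoter window of Hoxb7, with its summit 66 bases after the Hoxb7 TSS. Hoxd8 had 471 in the mutant and 0 in wild type, beside the H3K27me3 break described above. Hoxa6, Hoxb6, Hoxc5 and Hoxc8 had none in either genotype.

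Among the posterior genes, groups 9 to 13, group 13 was marked in all 4 clusters and most others were not. Hoxa13 had 277 bases in the mutant and 262 in wild type, and these were different regions: the mutant one had its summit 4 bases after the nearest TSS, outside H3K27me3, and the wild-type one 667 bases after it, under H3K27me3, with no base shared. Hoxb13 had 507 in the mutant and 476 in wild type. Hoxc13, known for hair and nail development, had 1201 and 659. Hoxd13, a digit gene, had 694 and 619. In the other posterior groups the mark was at Hoxd9 (1294 bases in the mutant and 1070 in wild type), Hoxa10, which acts in the uterus and lumbar vertebrae (633 and 348), Hoxd11, a forearm and kidney gene (533 and 0), and Hoxd12 (522 and 443). Hoxa9, Hoxb9, Hoxc9, Hoxc10, Hoxd10, Hoxa11, Hoxc11 and Hoxc12 had none in either genotype. By cluster, the mark was at 7 Hoxa genes in the mutant and 7 in wild type, 5 and 3 Hoxb genes, 3 and 2 Hoxc genes, and 8 and 6 Hoxd genes.

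**Figure D3:**
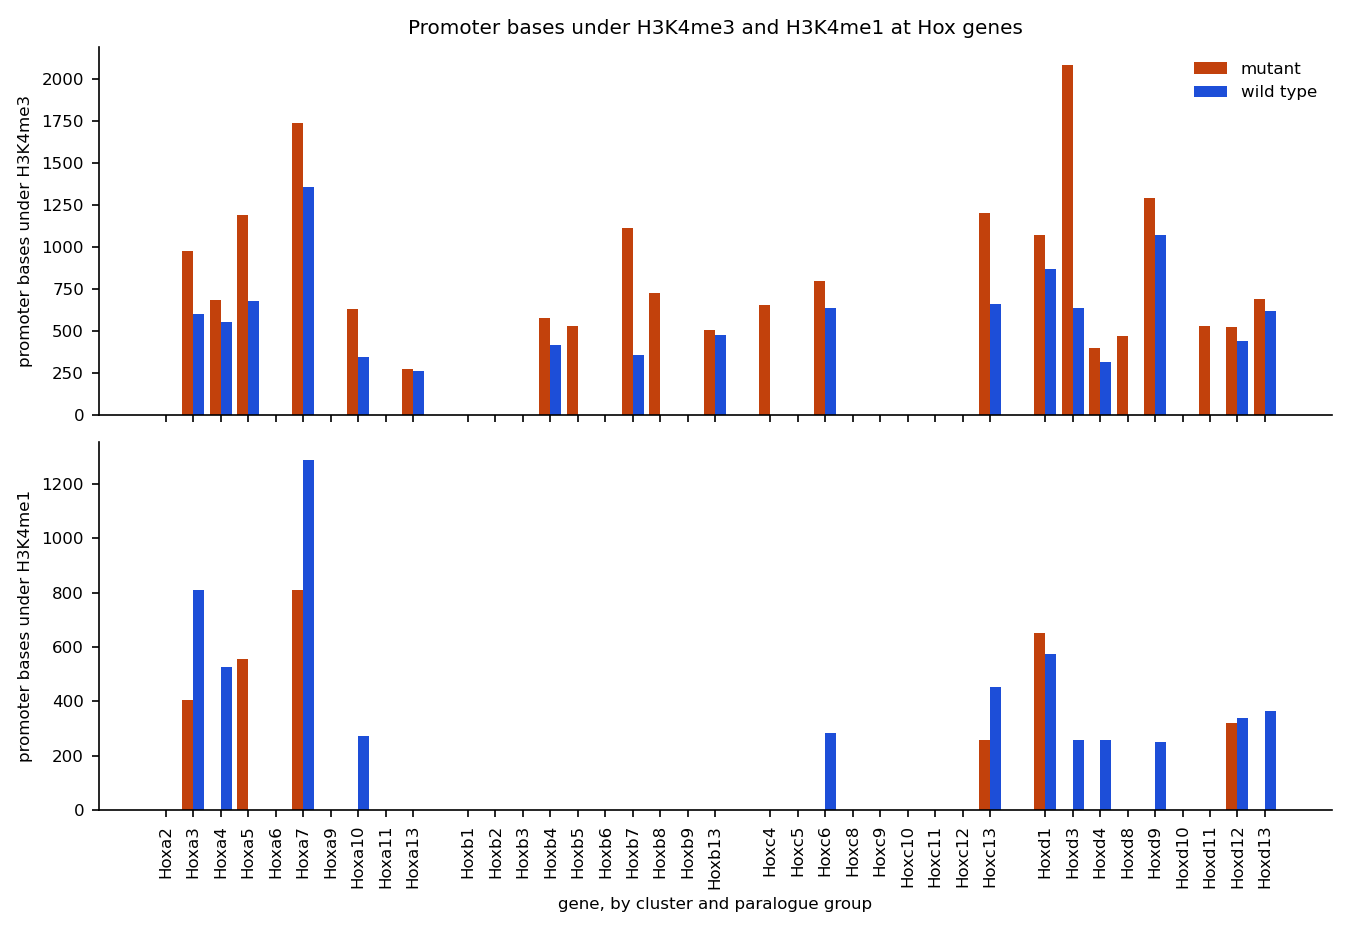
Bases of the promoter windows of the Hox genes drawn under H3K4me3 (top) and H3K4me1 (bottom), with mutant bars left of wild-type bars and genes ordered by cluster and paralogue group. Every gene drawn with H3K4me3 has the longer bar in the mutant, with Hoxd3 highest at 2088 bases, while those with H3K4me1 other than Hoxa5 and Hoxd1 have the longer bar in wild type.

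All 23 Hox promoters with H3K4me3 had more covered bases in the mutant, and 8 of the 39 passed the limit of 500 bases, 20.5% beside a background of 6.77%, with none lower (background 0.293%). The 3 greatest rises were those of Hoxd3, Hoxb7 and Hoxb8, given above. The other 400 H3K27me3-covered promoters showed the same direction, with 348 higher and 38 lower, and 121 of them (30.3%) rose past the limit. Of regions that matched 1 to 1 between the lists, 25 of 25 in the cluster windows were longer in the mutant, with median lengths of 694 bases in the mutant and 585 in wild type. Over chromosomes 1 to 19 and X, 86.3% of 28778 pairs were longer in the mutant, with median lengths of 1226 and 1050 bases. The median difference of a pair was near in size, 133 bases in the cluster windows and 127 over all chromosomes. Summed over the windows, H3K4me3 covered 25.9 kb in the mutant and 14.9 kb in wild type, a ratio of 1.74 beside 1.22 over all chromosomes. By cluster the covered bases were 6860 in the mutant and 4813 in wild type at Hoxa, 4077 and 1898 at Hoxb, 4329 and 2648 at Hoxc, and 10654 and 5555 at Hoxd. The ratios were 1.43, 2.15, 1.63 and 1.92, so that Hoxa alone stayed under the limit of 1.5. With 50 kb either side Hoxc came to 1.44, under the limit, and with −log10 p of at least 20 Hoxa came to 1.79, past it.

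The H3K4me3 islands were short and weak within their own lists. Their median length was 570 bases in the mutant and 569 in wild type, beside 870 and 971 for the whole lists. In the authors' fold enrichment, the Hox regions stood above 1.2% to 68.2% of the mutant list, with a median of 39.2%, and above 4.12% to 59.4% of the wild-type list, with a median of 29.6%. Of 42 mutant regions, 17 shared no base with a wild-type region, and these stood above a median of 16.7% of the mutant list, while the 25 shared ones stood above a median of 47.0%. Over the whole lists, 28.1% of mutant and 3.65% of wild-type H3K4me3 regions were not shared, and in the cluster windows 17 of 42 (mutant) and 1 of 26 (wild type). Most islands lay inside H3K27me3, with 36 of 42 in the mutant and 25 of 26 in wild type fully under it.

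Away from the Hox promoters, 13 of the 42 mutant and 7 of the 26 wild-type H3K4me3 regions touched no Hox promoter window. Several lay at starts of noncoding transcripts. In Hoxd, a region with its summit 43 bases after a start of 1700109F18Rik was 402 bases long in the mutant and 320 in wild type. Regions near starts of 6720416L17Rik and Gm14424, between Hoxd3 and Hoxd1, were 999 and 569 bases long in the mutant and 919 and 251 in wild type. In Hoxb, a region 107 bases after a start of Hoxb3os in the mutant, over the end of Hoxb2, was 539 bases long in the mutant and 399 in wild type. Around Evx2, the homeobox gene next to Hoxd13, the mutant list held 5 regions and the wild-type list 1, and the Evx2 promoter had 1334 bases under H3K4me3 in the mutant and 0 in wild type. Its counterpart Evx1 beside Hoxa had 306 in the mutant and 0 in wild type. The 6 microRNA genes in the windows (Mir10a, Mir10b, Mir196a-1, Mir196a-2, Mir196b and Mir615) had no H3K27ac within 2.5 kb, and H3K4me3 was there at Mir10a (577 bases in the mutant and 415 in wild type, the Hoxb4 region) and Mir10b (397 and 318, the Hoxd4 region).

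H3K27ac was at 0 of 39 Hox promoters in the mutant and 0 in wild type, against a background of 59.4% and 57.5% of all genes, and the exact 95% interval on 0 of 39 reached up to 9.03%. With no mark there, none gained, lost or moved it, beside 2.5% of all genes with H3K27ac in the mutant alone, 0.59% in wild type alone, 5.77% higher and 1.65% lower by 500 bases. Of the 400 other H3K27me3-covered promoters, 105 in the mutant and 75 in wild type had it. Over the 4 windows the mutant list held 1 region of 292 bases (chr15:102881646-102881937), 17.0 kb past the nearest Hoxc4 TSS and wholly under H3K27me3, and the wild-type list held none. In fold enrichment that region stood above 47.3% of the mutant H3K27ac list.

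H3K4me1 was at 7 Hox promoters in the mutant (17.9%, exact 95% interval 7.54% to 33.5%) and 13 in wild type (33.3%, 19.1% to 50.2%), against a background of 64.5% and 64.6% of all genes. It was in the wild-type list alone at 7 promoters, which is 17.9% of Hox genes beside a background of 1.45%, and in the mutant list alone at 1, beside 1.31%. Those 7 were Hoxa4 (0 bases in the mutant and 526 in wild type), Hoxa10 (0 and 273), Hoxc6 (0 and 283), Hoxd3 and Hoxd4, which share 1 region (0 and 258 each), Hoxd9 (0 and 250) and Hoxd13 (0 and 363). The promoter in the mutant list alone was Hoxa5 (557 and 0). Among promoters without H3K4me1 in the mutant, 7 of 32 Hox genes (21.9%) had it in wild type. That held for 24 of 75 (32.0%) of the other H3K27me3-covered promoters and 323 of 7886 (4.1%) of all genes. Among promoters without it in wild type, 1 of 26 Hox genes, 12 of 63 other covered promoters and 290 of 7853 of all genes had it in the mutant. The greatest falls were those of Hoxa4 (526 bases), Hoxa7 (809 bases in the mutant and 1289 in wild type) and Hoxa3 (405 and 811), and the rises were those of Hoxa5 and of Hoxd1 (653 and 576). Of these, Hoxa5 rose and Hoxa4 fell past the limit of 500 bases, 1 gene each, beside 4.06% of all genes higher and 4.28% lower. Hoxc13 had 257 bases in the mutant and 454 in wild type, and Hoxd12 320 and 337. No Hoxb promoter had the mark in either genotype, so Hoxb1 and Hoxb13 had none, nor did Hoxa13 or Hoxc4.

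H3K4me1 covered fewer bases of the clusters in the mutant. Summed over the windows, H3K4me1 covered 6.49 kb in the mutant and 8.89 kb in wild type, a ratio of 0.731 beside 1.10 over all chromosomes, and the ratio was 0.800 at Hoxa, 0.827 at Hoxb, 0.638 at Hoxc and 0.661 at Hoxd. Hoxc and Hoxd thus passed the limit of 1.5 times on the lower side, and Hoxa, Hoxb and the sum of the 4 windows did not. With no flank the ratios of Hoxc (0.694) and Hoxd (0.718) did not pass it, nor did Hoxc with 50 kb either side (0.792) or Hoxd with −log10 p of at least 8 (0.837), while the sum passed it with equal covered length (0.582). The Hox regions not shared between the lists had −log10 p from 5.83 to 10.6 in the mutant and from 5.12 to 11.6 in wild type, where the lowest values of the whole lists were 5.31 and 5.12, and the shared ones had medians of 10.6 in the mutant and 11.3 in wild type. With −log10 p of at least 8 in both lists, the mark was at 6 Hox promoters in the mutant and 6 in wild type, and 2 were in each list alone. The 400 other H3K27me3-covered promoters had the mark in 325 cases in the mutant and 337 in wild type, with 12 in the mutant list alone and 24 in the wild-type list alone. The H3K4me1 regions lay where H3K4me3 did: 12 of 13 mutant and 17 of 20 wild-type regions in the windows overlapped an H3K4me3 region of the same genotype.

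**Figure D4:**
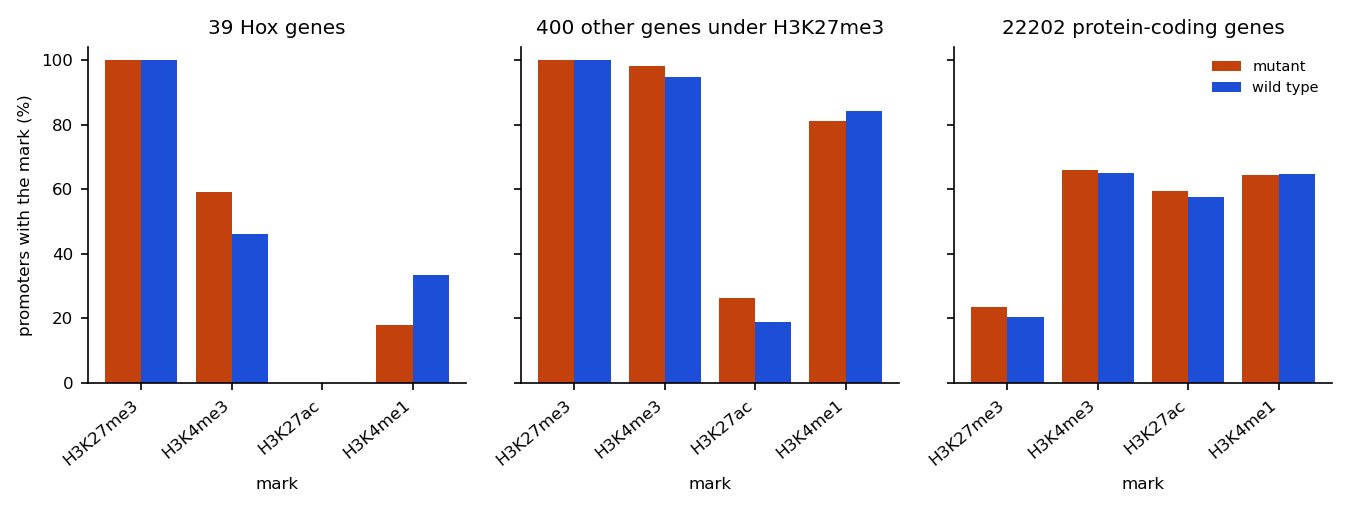
Percent of promoters with each mark (y axis) for the 39 Hox genes, 400 other genes with at least 90% of their promoter bases under H3K27me3 in both genotypes, and all 22202 protein-coding genes, with mutant bars left of wild-type bars. Hox promoters have no H3K27ac and have H3K4me3 in 59.0% (mutant) and 46.2% (wild type) of cases, against 98.3% and 94.8% of the other covered promoters.

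Set beside other promoters covered by H3K27me3 in both genotypes, H3K4me3 was at 23 of 39 in the mutant and 18 of 39 in wild type, beside 393 and 379 of 400, and H3K4me1 at 7 in the mutant and 13 in wild type beside 325 and 337 of 400. The comparison set was picked by its H3K27me3, so no test is given. In base composition the sets were nearer. In 1001 bases around the first TSS the median CpG count was 52 for Hox genes, 65 for the 400 others and 41 for all genes, and the median G or C share was 57.4%, 61.7% and 54.9%. The 23 Hox genes with H3K4me3 in either genotype had a median of 59 CpG, and the 16 without it had 42.5. Hoxa13 had the most CpG, 128, followed by Hoxa4 with 125 and Hoxd13 with 118, all with H3K4me3 in both genotypes. The mark was counted within 2.5 kb of any TSS, so it need not lie in these 1001 bases. Hoxd4 had 13 CpG and Hoxb4 17, and both were marked, but outside the bases counted. The Hoxd4 region (chr2:74565151-74565547 in the mutant) lay away from the first TSS at 74560035. The mutant Hoxb4 summit lay 2102 bases after its TSS. Hoxb9 had 90 CpG and was not marked.

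No NKX2-1 and no LHX6 peak lay in any of the 4 windows or at any Hox promoter. At the peak density of chromosomes 1 to 19 and X, the 0.652 Mb of the windows would hold 1.4 NKX2-1 and 0.408 LHX6 peaks, so an absence was not distinguishable from that rate. Peaks were at 7.68% of all promoters for NKX2-1 and 0.347% for LHX6, and at 9 and 2 of the 400 other H3K27me3-covered promoters. The nearest peak of either factor was an LHX6 peak (chr6:52271525-52271840) 60.7 kb past Hoxa13 and 3.3 kb from Evx1, in H3K27me3 in both genotypes and without the other 3 marks. The nearest NKX2-1 peak (chr15:102965114-102965469) lay 97.8 kb past Hoxc4 in D930007P13Rik, with H3K27ac and H3K4me1 in both genotypes, H3K4me3 in wild type and not in the mutant, and no H3K27me3 in either. Motif cores of the factors were counted as letters: CACTTGA, a core of NK2-class factors, read on both strands in the 5001 bases around the first TSS, was in 14 of 39 Hox windows (35.9%) and in 48.7% of all windows, and TAATTA, a core of LIM homeodomain factors, in 24 (61.5%) and 67.5%. A match of letters is no binding site.

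Genes that act on or with Hox genes were counted over lists chosen with earlier results of these data known. Their promoters past the limit of 500 bases are read beside the backgrounds given above: 8.34% higher and 0.401% lower for H3K27me3, 6.77% and 0.293% for H3K4me3, 5.77% and 1.65% for H3K27ac, and 4.06% and 4.28% for H3K4me1. Presence of a mark is read beside its share of all genes in the mutant and wild type. Those shares were 23.5% and 20.5% for H3K27me3, 66.1% and 64.9% for H3K4me3, and 59.4% and 57.5% for H3K27ac. Of 14 regulators of Hox expression (among them Cdx factors, retinoic acid enzymes and receptors, Egr2, Gbx2 and Gdf11), 13 had H3K27me3 in both genotypes. In the mutant, H3K27me3, H3K4me3 and H3K27ac were each longer at 3 of them and shorter at 0, and H3K4me1 was longer at 2 and shorter at 2. Of 18 matched Polycomb and trithorax genes, all had H3K4me3 and H3K27ac in both genotypes. H3K27me3 was longer at 2 of them, H3K4me3 at 3 and H3K27ac at 1, with none shorter, and H3K4me1 passed the limit at 0. Of 9 cofactors of Hox proteins (Pbx, Meis and Pknox genes), all had H3K27ac and H3K4me3 in both genotypes. H3K4me3 was longer at 3 of them and shorter at 0, H3K27ac likewise at 3 and 0, and H3K27me3 and H3K4me1 were each longer at 1 and shorter at 1. Of 9 matched homeobox genes silent in the forebrain, all had H3K27me3 in both genotypes. H3K4me3 was at 7 of them in the mutant and 4 in wild type, longer past the limit at 2 and shorter at 0. All 14 forebrain homeobox genes had all 4 marks in both genotypes. H3K27me3 was longer at 6 of them and shorter at 0, H3K4me3 longer at 5 and shorter at 2, H3K27ac longer at 2 and shorter at 2 (Lhx6 and Lhx8), and H3K4me1 longer at 3 and shorter at 3.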

How the data were processed

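The 8 histone mark and 2 factor libraries with a peak list were grouped by antibody and genotype from the labels. Input and IgG libraries were not analysed here. BWA 0.6.2, MACS2 2.1.0, CASAVA 1.8.2 and bcl2fastq 1.8.4 are named in the submitters' processing notes, with mm9 (NCBIM37) as the build. MACS 2.1.0.20140616 compared each ChIP with its input, per the file headers, with a p limit of 1e-05, tags extended to 250 bases, duplicates reduced to 1 tag per position, and neither a fragment model nor local lambda. Per the file headers, H3K4me3 had another input than the other marks. The deposited columns are the pileup (a signal in tags at the summit), −log10 p-values, −log10 q-values and fold enrichment (a ratio to input), used only to rank or filter regions. The headers say that q-values were not calculated, so that column was not used.

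Summits of 1 region were merged, with the values of its strongest summit kept. Chromosomes 1 to 19 and X were kept, and covered bases, overlaps (1 base or more) and joined domains computed with Python 3.11.15, numpy 2.4.6 and pandas 2.3.3. Of 2150 checks on simulated regions, 0 mismatched. Intervals are exact Clopper-Pearson (scipy 1.17.1). Hoxa3 has 2 gene IDs and was counted once, and 39 Hox genes have 73 TSSs. Distances and coordinates are on NCBIM37, from 1. Covered length was called higher or lower at 500 bases, and ratios past 1.5 times. With 1 library per group no p-value was computed.

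The members, gene lists, markers and tests were chosen with earlier results of these data known. Of 81 list entries 78 matched the annotation, and the rest were left out. Named in full are the first and last gene of each cluster, genes with a mark in 1 genotype alone, the 3 greatest rises and falls of promoter cover per mark, and genes at domain edges, apart from a few results that are not reported here. Alternatives were other windows, flanks, joining gaps and overlaps, the first TSS alone, stricter limits on −log10 p, and the longer list reduced to equal covered length.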

Additional observations from a re-analysis of the deposited data

How the results depend on the processing

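Of 271 recomputed values, 235 stayed within 1.5 times of the reported one, 32 moved further, and 4 ratios past 1.5 turned below 1. With the mutant list reduced to equal covered length, the H3K4me3 ratio over the 4 clusters turned to 0.784 (0.304 at Hoxb, 0.922 at Hoxc, 0.925 at Hoxd, and 0.734 at Hoxa, which had not passed 1.5), with 11.7 kb in the mutant, 8 marked promoters in the mutant, 0 in the mutant alone, 10 in wild type alone, 0 higher and 4 lower; H3K4me1 was then lower at 2. The limit falls on 1 list, so fewer mutant regions are left. With −log10 p of at least 20, chosen after seeing the data, H3K4me3 was at 10 promoters in the mutant alone and 9 in wild type, where it covered 9.43 kb. With at least 500 bases covered, H3K4me3 was at 9 in the mutant alone and 11 in wild type, and H3K4me1 at 4 in the mutant, 5 in wild type and 2 in wild type alone. With −log10 p of at least 8, H3K4me1 was at 2 in the mutant alone, 6 in wild type and 2 in wild type alone, and lower at 2. With windows of 5 kb, H3K4me1 was at 12 in the mutant, 2 in the mutant alone, and lower at 3. With no flank, the mutant had 0 kb of H3K27ac, and with 50 kb it had 4.79 kb and wild type 4.14 kb, with H3K4me1 at 12.4 kb in the mutant and 15.7 kb in wild type. Other causes were not tested. H3K27me3 at promoters and the absence of factor peaks held under every alternative run for them. For factor peaks, only the flank of 50 kb could have changed the count, since the stricter limit and no flank can only remove peaks. Likewise, the values of 0 for H3K27ac at promoters could change only with windows of 5 kb. Such values are among the 235 that stayed.

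No paired analysis was possible because the replicate numbers in the labels belong to input libraries, which have no peak list. Depth limits regions near the p-value limit, and a region missing from a list is not shown to lack the mark.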

Other observations

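Of 15 neighbours of the Hox clusters, 14 matched the annotation. H3K27me3 was at the promoters of 6 in the mutant and 5 in wild type, and H3K27ac at 10 in each. Over all genes the shares were 23.5% and 20.5% for H3K27me3 and 59.4% and 57.5% for H3K27ac, in the mutant and wild type. Past the limit of 500 bases in the mutant, H3K27me3 and H3K4me3 were each longer at 2 and shorter at 0, H3K27ac longer at 1 and shorter at 1, and H3K4me1 longer at 0 and shorter at 2. The shares of all genes longer and shorter were 8.34% and 0.401% for H3K27me3 and 6.77% and 0.293% for H3K4me3. They were 5.77% and 1.65% for H3K27ac and 4.06% and 4.28% for H3K4me1. Evx1 and Evx2, the homeobox genes nearest to Hoxa13 and Hoxd13, had H3K27me3 over all 5055 and 5443 promoter bases in both genotypes and no H3K27ac. Atp5g2, a mitochondrial ATP synthase subunit gene beside Hoxc, had no H3K27me3, with 3436 promoter bases under H3K27ac in the mutant and 3370 in wild type. Lnp beside Hoxd had none either, with 1787 bases of H3K27ac in the mutant and 1749 in wild type. Skap2 beside Hoxa had both marks, with 3140 bases of H3K27me3 in the mutant and 3026 in wild type, and 634 bases of H3K27ac in the mutant and 854 in wild type. These genes were picked from the list after their values were seen.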
